A study of Homo sapiens with 8 samples.

Results

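CCR2, CYSLTR1 and RXFP1 are 3 genes for G protein-coupled receptors, taken as every probe that the platform annotation names with one of these symbols. Each had 1 probe, so they are 3 of the 14884 named genes measured. In THP-1 cells treated for 5 h, all 3 lay lower with FRAX-597 and with IPA-3, both inhibitors of p21-activated kinases, than in the solvent controls of the same array set. CCR2 was at 35.0% of its DMSO level with FRAX-597 and at 38.3% with IPA-3. CYSLTR1 was at 51.0% with FRAX-597 and at 37.6% with IPA-3, and RXFP1 at 49.2% with FRAX-597 and at 59.0% with IPA-3. The 3 receptors were chosen by these same changes of FRAX-597 and IPA-3 against DMSO, so the changes against DMSO are described below without a test. They give no support of their own for an effect of the compounds.

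THP-1 is an established human line from an acute monocytic leukaemia. The cells had 5 h of FRAX-597 at 2 µg/mL (2 arrays), of IPA-3 at 6 µg/mL (2 arrays), or of an equal volume of DMSO (4 arrays). FRAX-597 competes with ATP for the group I p21-activated kinases (PAKs), and IPA-3 inhibits PAK1 allosterically. The study asked whether PAK1 could be targeted in myeloid leukaemia and myelodysplasia. The arrays are 1-colour Affymetrix whole-transcript arrays, and their number limits the precision. All come from a single cell line, and nothing in the labels tells if replicates were separate cultures. Spreads and p-values therefore cover these arrays only, and may be technical.

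DMSO 1, DMSO 2 and the IPA-3 arrays lay on one scale, with medians over all probes of 5.51 to 5.55. DMSO 3, DMSO 4 and the FRAX-597 arrays lay on another, with medians of 6.00 to 6.05. These 2 sets carry no label, and each compound is set against the DMSO pair of its own set. The markers give no check of the cell type here, since levels of different probes cannot be set against each other and no detection call was used. Over the 8 arrays the median level of 13 measured monocyte and myeloid markers was 7.72 to 8.85. It was 5.24 to 6.07 for 5 T cell markers and 5.2 to 6.02 for 3 B cell markers. For 6 epithelial markers it was 5.32 to 6.15. Genes within a list differed widely. LYZ, the myeloid lysozyme, was at 9.71 to 11.27, and CD14, a monocyte surface receptor, at 6.27 to 7.44. KRT18, an epithelial keratin with the highest values of its list, was at 8.91 to 9.74, and EPCAM of that list at 4.58 to 4.98. In RNA from a bulk culture, fewer cells with a transcript and less of it in each cell cannot be told apart.

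The 3 receptors belong to different signalling systems. CCR2 binds the chemokine CCL2 and related ligands, couples mainly to Gi proteins, and is known for bringing monocytes out of the bone marrow and into inflamed tissue. CYSLTR1 binds cysteinyl leukotrienes, lipid mediators made from arachidonic acid by 5-lipoxygenase, raises intracellular calcium through Gq proteins, and is the target of the asthma drug montelukast. RXFP1 binds the peptide hormone relaxin through a large leucine-rich ectodomain and raises cAMP through Gs proteins. THP-1 cells are a common model for its signalling.

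The genes lie on different chromosomes. In GRCh38.p14, the build of the RefSeq gene reference used here, CCR2 lies at chr3:46354111-46360940, CYSLTR1 at chrX:78271468-78327611 and RXFP1 at chr4:158521714-158653372. The promoter windows at the gene starts are printed because the 3 genes lay low together. Each is the RefSeq window of GRCh38.p14 from 250 bases before to 50 bases after the start. They are chr3:46353861-46354160 on the plus strand for CCR2, chrX:78327562-78327861 on the minus strand for CYSLTR1 and chr4:158521464-158521763 on the plus strand for RXFP1. Capitals mark matches to the motif letters given after them, on either strand.
CCR2: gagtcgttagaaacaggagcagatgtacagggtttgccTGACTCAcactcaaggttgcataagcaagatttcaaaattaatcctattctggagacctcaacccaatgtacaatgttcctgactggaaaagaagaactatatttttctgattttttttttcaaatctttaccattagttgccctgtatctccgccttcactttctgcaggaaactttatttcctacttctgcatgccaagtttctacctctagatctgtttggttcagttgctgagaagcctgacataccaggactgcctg
CYSLTR1: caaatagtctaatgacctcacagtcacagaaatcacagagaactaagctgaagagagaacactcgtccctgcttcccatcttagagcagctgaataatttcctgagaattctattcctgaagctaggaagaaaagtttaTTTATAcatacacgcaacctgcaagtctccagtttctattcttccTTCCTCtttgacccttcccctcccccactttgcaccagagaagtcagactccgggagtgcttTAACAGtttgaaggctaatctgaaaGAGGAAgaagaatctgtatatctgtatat
RXFP1: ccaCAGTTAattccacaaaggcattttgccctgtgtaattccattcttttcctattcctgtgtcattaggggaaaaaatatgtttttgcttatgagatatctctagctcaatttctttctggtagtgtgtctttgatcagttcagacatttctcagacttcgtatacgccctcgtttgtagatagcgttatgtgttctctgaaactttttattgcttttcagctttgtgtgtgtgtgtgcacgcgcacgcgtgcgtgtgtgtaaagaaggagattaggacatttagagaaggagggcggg
The search covered 7 motifs on both strands, none of which contains another, and no motif occurred in all 3 windows. The ETS core of the PU.1 type was searched as GAGGAA. It is found in 27.9% of the 35116 RefSeq promoter windows, and stood at 2 places in CYSLTR1. The AP-1 motif was searched as TGACTCA. It is found in 4.95% of all windows, and stood at 1 place in CCR2. The MYB motif was searched as TAACNG. It is found in 20.8% of all windows, and stood at 1 place each in CYSLTR1 and RXFP1. The TATA box was searched as TATAAA. It is found in 11.5% of all windows, and stood at 1 place in CYSLTR1. There it lay on the opposite strand, as TTTATA from position -111 to the start, and its use as a TATA box was not tested. For the core of the cAMP response element the letters were TGACGT. They are in 7.98% of all windows and in none of these 3. For the EGR motif the letters were GTGGGCG. They are in 9.52% of all windows and in none of these 3. For the E-box of MYC the letters were CACGTG. They are in 7.26% of all windows and in none of these 3. What the windows had in common was base composition. G and C made up 40.7% of the CCR2 window, 42.0% of that of CYSLTR1 and 41.3% of that of RXFP1, all under the lower quartile of 47.0% over all windows. They held 2, 3 and 10 CpG dinucleotides in the same order, against a median of 14 over all windows. RXFP1 has a second listed start with a window at chr4:158521632-158521931, which held the PU.1 letters at 2 places and the MYB letters at 1.

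CCR2 had the widest gap between replicates of the 3, between DMSO 3 and DMSO 4. Its level (deposited log2 value; probe 16940172) was 7.30 and 7.13 in the FRAX-597 arrays, against 9.36 in DMSO 3 and 8.10 in DMSO 4. It was 8.60 and 8.20 in the IPA-3 arrays, against 9.75 in DMSO 1 and 9.82 in DMSO 2. Neither compound overlapped its DMSO pair. With FRAX-597 the mean was 7.21 ± 0.12, against 8.73 ± 0.89 in DMSO 3 and 4 (SD, n = 2 each), a log2 difference of -1.52 (SE 0.36), or 2.86-fold lower. With IPA-3 it was 8.40 ± 0.29, against 9.78 ± 0.05 in DMSO 1 and 2 (SD, n = 2 each), a difference of -1.39 (SE 0.36), or 2.61-fold lower. Single FRAX-597 arrays differed from single DMSO arrays of their set by -2.23 to -0.80, and DMSO 3 and DMSO 4 were 1.26 apart. Without DMSO 3 the difference was -0.89, and without DMSO 4 it was -2.15.

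CYSLTR1 stood apart most clearly with IPA-3. Its level (probe 17112349) was 5.99 and 6.03 in the IPA-3 arrays, against 7.48 in DMSO 1 and 7.36 in DMSO 2. It was 7.05 and 7.42 in the FRAX-597 arrays, against 8.18 in DMSO 3 and 8.24 in DMSO 4. Again no compound array reached a DMSO array of its set. With IPA-3 the mean was 6.01 ± 0.03, against 7.42 ± 0.09 in DMSO 1 and 2 (SD, n = 2 each). That is a log2 difference of -1.41 (SE 0.14), or 2.66-fold lower. With FRAX-597 it was 7.24 ± 0.26, against 8.21 ± 0.05 in DMSO 3 and 4 (SD, n = 2 each), a difference of -0.97 (SE 0.14), or 1.96-fold lower. The FRAX-597 replicates differed by 0.37, and the IPA-3 replicates by 0.04.

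RXFP1 had close replicates in all groups. Its level (probe 16971910) was 7.60 and 7.53 in the FRAX-597 arrays, against 8.63 in DMSO 3 and 8.55 in DMSO 4. It was 7.55 and 7.44 in the IPA-3 arrays, against 8.18 in DMSO 1 and 8.34 in DMSO 2. The compound arrays lay under the DMSO arrays in both sets. With FRAX-597 the mean was 7.57 ± 0.05, against 8.59 ± 0.06 in DMSO 3 and 4 (SD, n = 2 each), a log2 difference of -1.02 (SE 0.11), or 2.03-fold lower. With IPA-3 it was 7.50 ± 0.08, against 8.26 ± 0.11 in DMSO 1 and 2 (SD, n = 2 each), a difference of -0.76 (SE 0.11), or 1.69-fold lower.

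**Figure D1:**
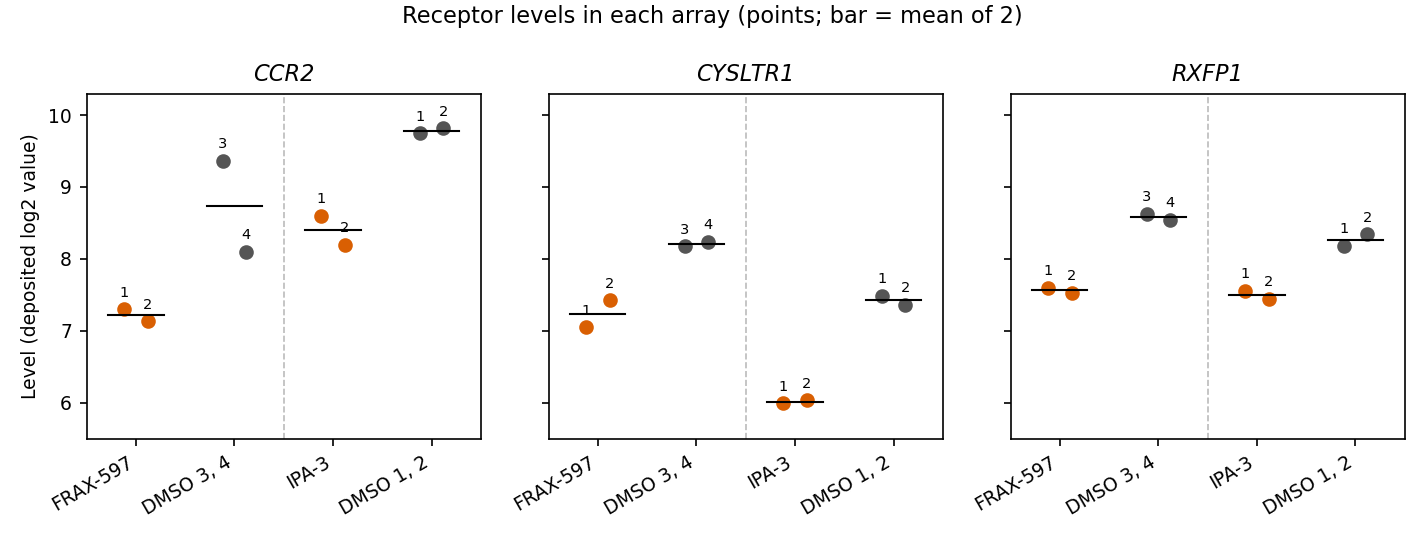
Deposited log2 level (vertical axis) of CCR2, CYSLTR1 and RXFP1 in each of the 8 arrays, with replicate numbers over the points and a bar at the mean of 2. Compound arrays are orange, DMSO arrays grey, and the dashed line separates the 2 array sets. In each set the compound arrays lie under both DMSO arrays for all 3 genes, and DMSO 3 and DMSO 4 are 1.26 apart for CCR2.

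All 3 genes had both compound arrays under both DMSO arrays in both sets. Over all genes, 17.8% did so for FRAX-597, 28.3% for IPA-3 and 5.97% in both, and since the 3 were picked as low nothing is read from that count. The calls of limma at an adjusted p under 0.05 over all genes are given as the same kind of background: 0.155% of genes for FRAX-597 (0.121% higher and 0.0336% lower) and 0.0336% for IPA-3 (0.00672% lower). Ordered by change, CYSLTR1 had the lowest value of all 14884 genes with IPA-3 and CCR2 the next. RXFP1 was number 33 from the lowest. With FRAX-597, CCR2 was number 3, RXFP1 number 10 and CYSLTR1 number 14. The medians over all genes were -0.02 for each compound. The compounds were used at different doses and read on different array sets, so their changes stand side by side without a comparison.

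The 24 values of the 3 receptors were all above at least 41.1% of the named genes of their array. The lowest position was that of CYSLTR1 in IPA-3 1 and the highest, 95.4%, that of CCR2 in DMSO 2. These are positions of probe values and not of transcript amounts, since levels of different probes cannot be set against each other. The files used here give no detection call, so a background level was not measured for these probes.

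**Figure D2:**
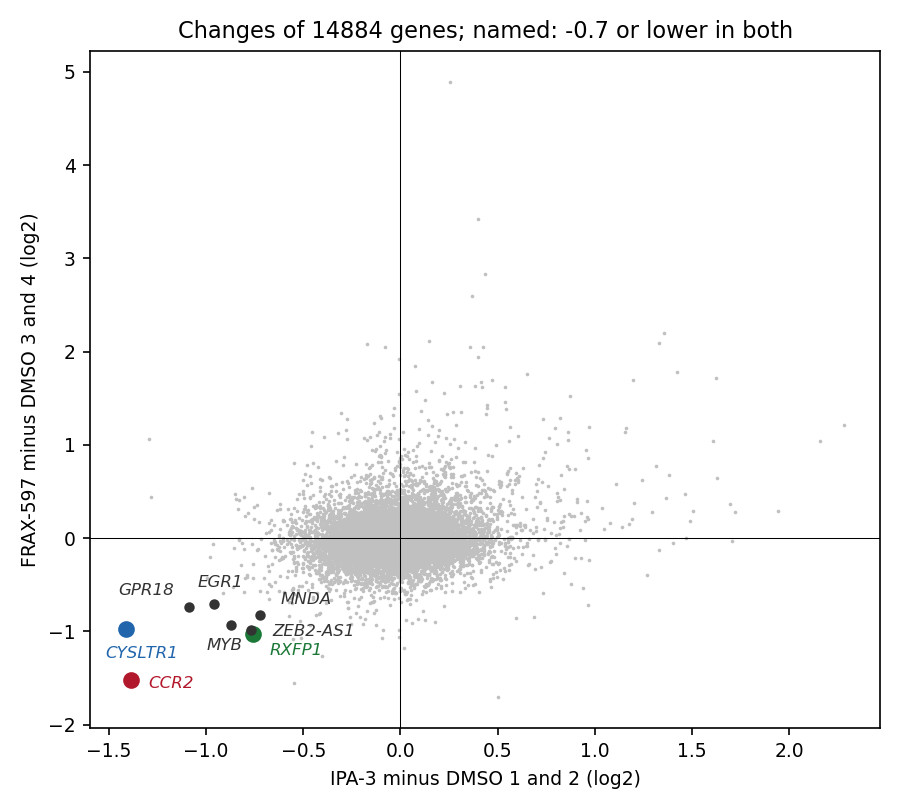
Change of each of 14884 genes with IPA-3 against DMSO 1 and 2 (horizontal axis, log2) and with FRAX-597 against DMSO 3 and 4 (vertical axis, log2), with no array used on both axes. The 8 named genes had a change of -0.7 or lower on both, and CCR2, lowest on the left, is the 1 gene at -1 or lower on both. CCR2, CYSLTR1 and RXFP1 were chosen as low.

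Few genes lay as low with both compounds, which were set against different DMSO arrays. The following limits were chosen after the values were seen. A change of -0.5 or lower was found for 176 genes with FRAX-597 and 205 with IPA-3, and 33 were in both (18.8% and 16.1% of those lists). At -0.7 the lists held 49 and 44 genes with 8 shared (16.3% and 18.2%), and at -1 they held 10 and 5 with CCR2 alone shared. The 8 were CCR2, CYSLTR1, RXFP1, a further G protein-coupled receptor of leukocytes, GPR18, and MYB, EGR1, MNDA and ZEB2-AS1. With quantile normalization 5 remained and RXFP1 was not among them. Without DMSO 4 there were 13, of which 7 were among the 8, and without DMSO 2 RXFP1 dropped out.

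The 5 others were followed array by array. MYB, a transcription factor of blood progenitors, was at 10.12 and 9.97 with FRAX-597, against 10.98 and 10.97 in DMSO 3 and 4, and fell by 0.93 on the log2 scale (SE 0.11; limma adjusted p = 0.029). With IPA-3 it was at 9.75 in both arrays, against 10.65 and 10.58 in DMSO 1 and 2, a change of -0.87 (SE 0.11; limma adjusted p = 0.0941). The MYB compound arrays lay under their DMSO arrays in both sets, as they did for 5.97% of all genes. The FRAX-597 call of MYB was lost with pooled controls (adjusted p = 0.508), with the second set fitted alone (0.769), with every probe tested (0.106), and without any single array other than FRAX-597 2 (0.0548 to 0.154). EGR1, an immediate early zinc finger factor, had changes of -0.70 with FRAX-597 (limma adjusted p = 0.241) and -0.96 with IPA-3 (limma adjusted p = 0.256). ZEB2-AS1, an antisense RNA of the ZEB2 locus, had -0.98 and -0.77 (limma adjusted p = 0.219 and 0.526 in the same order). MNDA, a nuclear antigen of myeloid cells, and GPR18 had adjusted p of 0.697 to 0.86. These p-values depended on how the replicates of the second set were treated. DMSO 3 with FRAX-597 1 and DMSO 4 with FRAX-597 2 can be taken as blocks, a pairing that comes from the data and not from the labels. It was chosen because the replicate differences went together, so p-values with the blocks, here and below, may be too small and are descriptive. The first set was not paired, and its p-values with the blocks changed through the spread shared over all arrays. With these blocks limma called MYB, EGR1, GPR18, MNDA and ZEB2-AS1 with FRAX-597 (adjusted p = 0.00645, 0.0367, 0.0197, 0.0197 and 0.0435 in this order). It also called MYB, EGR1, GPR18 and MNDA with IPA-3 (adjusted p = 0.0195, 0.0227, 0.00977 and 0.0499). With the first set fitted alone, MYB, EGR1 and GPR18 were called with IPA-3 (adjusted p = 0.0295, 0.0233 and 0.0179). EGR1 was called with IPA-3 without either FRAX-597 array as well, and with FRAX-597 without FRAX-597 2. MYB was called with IPA-3 under a trended spread and without either FRAX-597 array.

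The genes most like each receptor were sought by Pearson's r over the 8 arrays, after subtracting the mean of each array set. The search covered 1230 genes whose centred values had an SD of 0.3 or more. These values are descriptive, because all points share the same 8 arrays and the sorting of compound from DMSO. EGR1 was most like CYSLTR1 (r = 0.989), followed by MYB (0.949), the homeobox factor IRX3 (0.921), RXFP1 (0.915) and PHACTR3 (0.874). MYB was most like RXFP1 (r = 0.982), followed by ZEB2-AS1 (0.954), TMT1B (0.938), PGBD5 (0.935) and EGR3 (0.932). CCR2 was most like PGBD5 (r = 0.973), TNS3, a tensin of focal adhesions (0.971), LAIR1, an inhibitory collagen receptor of leukocytes (0.969), ZEB2-AS1 (0.964) and CDCA7 (0.961). At r over 0.9 there were 18 genes for CCR2, 12 for RXFP1 and 4 for CYSLTR1. Among themselves the receptors had r of 0.926 for CCR2 and RXFP1, 0.915 for CYSLTR1 and RXFP1, and 0.851 for CCR2 and CYSLTR1. High values among the 3 follow from their choice as low with both compounds, so nothing is read from them. EGR1 was at 8.68 in FRAX-597 1 and 9.15 in FRAX-597 2, against 9.58 in DMSO 3 and 9.66 in DMSO 4, and CYSLTR1 too was higher in FRAX-597 2 than in FRAX-597 1.

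The solvent controls of the sets were also set side by side, DMSO 3 and 4 and DMSO 1 and 2. The levels of all 4 arrays entered the changes by which the receptors were chosen, so the differences are given without a test. They were taken on values centred on each array's median over all genes, since all genes together lay 0.48 higher in DMSO 3 and 4. CCR2 lay lower in the second set. Its centred level was 2.42 and 1.21 in DMSO 3 and 4, against 3.31 and 3.37 in DMSO 1 and 2. The difference was -1.53 (SE 0.35), in a comparison in which limma called 30.2% of all genes, with 16.6% of all genes lower. DMSO 3 and DMSO 4 both lay under both DMSO arrays of the first set. Nothing is read from this, since the share of all genes that did so was not counted. The difference was -2.14 without DMSO 3 and -0.93 without DMSO 4. For CYSLTR1 the difference was 0.31 (SE 0.15), and for RXFP1 it was -0.15 (SE 0.11). Uncentred, the differences were -1.05 for CCR2, 0.79 for CYSLTR1 and 0.33 for RXFP1. The sign for RXFP1 was thus opposite to that of its centred difference.

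Over the 4 groups on the centred scale, CCR2 was highest in DMSO 1 and 2 (3.34 ± 0.04). IPA-3 (1.96 ± 0.28) and DMSO 3 and 4 (1.81 ± 0.86) overlapped below it, and FRAX-597 was lowest (0.29 ± 0.11; SD, n = 2 per group). CYSLTR1 ran from DMSO 3 and 4 (1.29 ± 0.08) through DMSO 1 and 2 (0.98 ± 0.10) and FRAX-597 (0.31 ± 0.27) to IPA-3 (-0.42 ± 0.03). RXFP1 ran from DMSO 1 and 2 (1.82 ± 0.10) through DMSO 3 and 4 (1.67 ± 0.02) and IPA-3 (1.06 ± 0.07) to FRAX-597 (0.64 ± 0.04). For CYSLTR1 and RXFP1 the 2 DMSO pairs were next to each other in this order. Their arrays did not overlap, but the share of all genes without such overlap was not counted, so nothing is read from it.

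Other genes of the 3 systems were counted on lists that do not hold the receptors themselves. Among 78 measured chemokine receptors, lipid mediator receptors and other G protein-coupled receptors of myeloid cells, GPR18 alone had a change of -0.7 or lower with both compounds. The thrombin receptor gene F2RL3 rose with FRAX-597, at 8.23 with the compound, against 6.18 in DMSO 3 and 4 (log2 change 2.05, SE 0.23; limma adjusted p = 0.029). It was the 1 listed receptor, and the 1 gene of all these lists, called with either compound in the fit of the deposited values of all 8 arrays without blocks. Its call was lost with pooled controls (adjusted p = 0.0544), with the second set fitted alone (0.769), with every probe tested (0.0934), and without FRAX-597 1 (0.0847) or any single array of the first set (0.133 to 0.143). Other settings called further receptors of myeloid cells. C3AR1, for the complement fragment C3a, was called with FRAX-597 with the blocks (1.20, adjusted p = 0.0393) and with IPA-3 with the first set alone (0.97, adjusted p = 0.0342). In the fit of all 8 arrays without blocks its limma adjusted p was 0.865 with each compound. FPR2, a formyl peptide receptor, was at 4.43 and 6.52 with FRAX-597, against 4.23 and 4.4 in DMSO 3 and 4 (limma adjusted p = 0.72). It was called only without FRAX-597 1, with a change of 2.20. C5AR1, for the complement fragment C5a, was at 8.05 and 7.05 with FRAX-597, against 6.35 and 6.41 (limma adjusted p = 0.305). It was called only without FRAX-597 2, with a change of 1.67.

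The 19 measured chemokine receptors had a median change of 0.05 with FRAX-597 and -0.03 with IPA-3, and 0 were called. CXCR4, the receptor for CXCL12 that holds blood progenitors in the marrow, was at 7.69 and 7.50 with IPA-3, against 8.78 and 8.97 in DMSO 1 and 2 (change -1.28, SE 0.35; limma adjusted p = 0.526). With FRAX-597 CXCR4 was at 9.70 and 8.54, against 8.92 and 8.42 in DMSO 3 and 4 (0.44, SE 0.35; limma adjusted p = 0.882). The IPA-3 arrays lay under their DMSO arrays, as they did for 28.3% of all genes, whereas with FRAX-597 the groups overlapped. The IPA-3 change of CXCR4 was called when the first set was fitted alone (adjusted p = 0.0233) and with the blocks (0.0268). ACKR3, a scavenging receptor for CXCL12, was at 0.77 with FRAX-597 (SE 0.16; limma adjusted p = 0.218), and was called with the blocks (adjusted p = 0.0356). CCR7, which guides cells to lymph nodes, was at 7.97 and 6.35 with FRAX-597, against 6.33 and 6.47 in DMSO 3 and 4 (limma adjusted p = 0.804). It was called only without FRAX-597 2, with a change of 1.57. CXCR3 had 0.38 with FRAX-597 and 0.30 with IPA-3, and CXCR2, a neutrophil receptor for interleukin-8, had -0.59 with IPA-3, none of them called. Of the CCR2 ligands, CCL2 had changes of 1.28 with FRAX-597 and 0.73 with IPA-3, and 0 of 4 measured ligands were called. Each change had an SE of 1.41, from 1 spread over all 8 arrays, and the wide gaps between replicates were in the second set. CCL2 was at 10.5 and 6.29 with FRAX-597, against 8.82 and 5.42 in DMSO 3 and 4. With IPA-3 it was at 7.18 and 6.92, against 6.18 and 6.46 in DMSO 1 and 2. With the blocks CCL2 was called with FRAX-597 (adjusted p = 0.0344).

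In the leukotriene system, all 7 measured synthesis genes lay below 0 with IPA-3, with a median of -0.31 against -0.02 over all genes, and 0 were called. LTA4H, which makes leukotriene B4, was at -0.47 (SE 0.12; limma adjusted p = 0.524), 5-lipoxygenase ALOX5 of -0.57 (SE 0.25) and its activating protein ALOX5AP of -0.33 (SE 0.24). With FRAX-597 the median was -0.07, with 4 of 7 below 0, and ALOX5AP was at 0.58 (SE 0.24; limma adjusted p = 0.633, and 0.0367 with the blocks). The 28 receptors for leukotrienes and other lipid mediators had medians of -0.03 with FRAX-597 and -0.02 with IPA-3, with 0 called. PTGER4, a prostaglandin E2 receptor that raises cAMP, was lowest among them with FRAX-597 (-1.08, SE 0.26; limma adjusted p = 0.297) and also lowest with IPA-3 (-0.55, SE 0.26; limma adjusted p = 0.718). With FRAX-597 it was called with the blocks (adjusted p = 0.0309) and without FRAX-597 1 (-1.54, adjusted p = 0.0139). PTAFR, the receptor for platelet-activating factor, had 0.48 with FRAX-597 and -0.52 with IPA-3.

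In the relaxin system, 13 other ligand and receptor genes were measured and 0 were called, with medians of -0.07 with FRAX-597 and 0.11 with IPA-3. LGR6, a relative of RXFP1 that binds R-spondins, had changes of 0.34 with FRAX-597 (SE 0.11; limma adjusted p = 0.46) and 0.47 with IPA-3 (SE 0.11; limma adjusted p = 0.455), and its relative LGR4 had -0.22 and -0.40 in the same order. Of 17 cAMP pathway genes 0 were called. CREM, a cAMP-responsive transcription factor, came nearest, with a change of 1.62 with FRAX-597 (SE 0.22; limma adjusted p = 0.0573) and 0.42 with IPA-3. With FRAX-597 CREM was called under quantile normalization (adjusted p = 0.048), with the blocks (0.00184) and without FRAX-597 2 (0.0102). The adenylyl cyclases ADCY6 and ADCY7 had 0.60 and -0.48 with IPA-3, and the phosphodiesterase PDE7B 0.82 with FRAX-597 and -0.33 with IPA-3. PDE7B was called with FRAX-597 with the blocks (adjusted p = 0.0331) and without FRAX-597 1 (0.0388). RGS proteins, which end G protein signals, had medians of -0.01 with FRAX-597 and 0.01 with IPA-3 over 18 genes, with 0 called. RGS16 was at 1.49 and RGS19 at -0.81 with FRAX-597 (limma adjusted p = 0.359 and 0.354). RGS19 was called with the blocks (adjusted p = 0.0367), and both RGS16 (0.0458) and RGS19 (0.0141) without FRAX-597 2. RGS18 was lowest of the list with IPA-3 (-0.73), and was called with the first set fitted alone (adjusted p = 0.0397) and with the blocks (0.0335). Only 5 of 38 listed genes for G proteins, arrestins, receptor kinases and other signalling partners were measured among the named probes. They were GNAS, GNA12, GRK5, GRK6 and NUP85, and 0 of them were called.

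**Figure D3:**
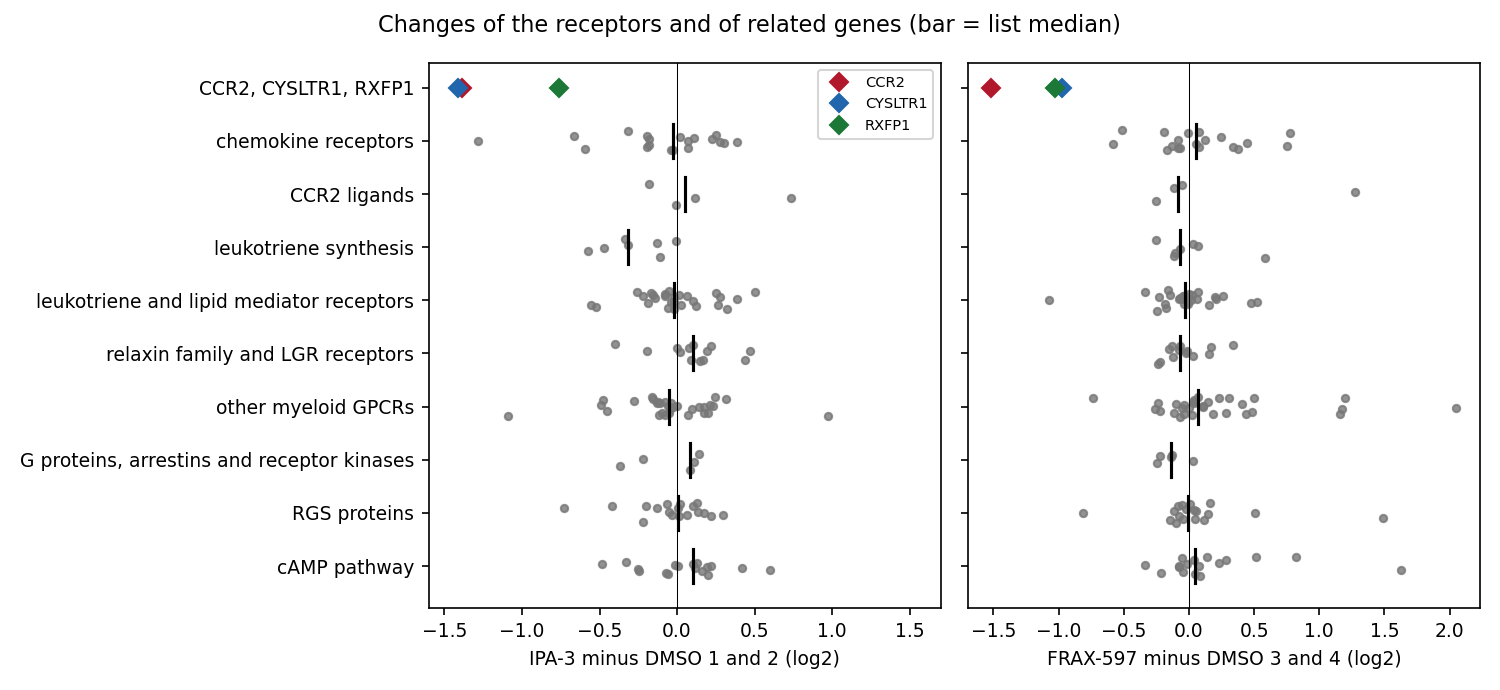
Change (log2, horizontal axis) with IPA-3 against DMSO 1 and 2 (left panel) and with FRAX-597 against DMSO 3 and 4 (right panel) for the 3 receptors (diamonds) and for each measured gene of 9 related lists (grey points, offset vertically at random; bars are list medians). The list medians lie between -0.31 and 0.11. Single list genes reach the range of the receptors, which were chosen as low, among them CXCR4 (-1.28) and GPR18 (-1.09) with IPA-3 and PTGER4 (-1.08) with FRAX-597.

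The monocyte and myeloid markers were looked at beside the receptors, because CCR2 is itself a monocyte gene. Of 13 measured, 0 were called with either compound, and with the blocks MNDA was called with both. Their medians were -0.07 with FRAX-597 (8 of 13 below 0) and -0.11 with IPA-3 (9 of 13 below 0). Their median level was 8.76 and 8.33 with FRAX-597, against 8.85 and 8.24 in DMSO 3 and 4, and 7.83 and 7.72 with IPA-3, against 8.23 and 8.20 in DMSO 1 and 2. Both IPA-3 values lay under both of their DMSO values, whereas the FRAX-597 values overlapped theirs. The part of this in the receptors' values was not tested.

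The genes beside the receptors were looked at by position. The 3 nearest measured genes on each side, 18 in all, had 0 calls with either compound in limma, against 0.155% of all genes for FRAX-597 and 0.0336% for IPA-3. Beside CCR2, CCRL2 at 46.3 kb, a chemerin-binding relative of the chemokine receptors, had changes of 0.34 with FRAX-597 (SE 0.12) and 0.07 with IPA-3 (SE 0.12). CCR1 at 145.8 kb, a monocyte chemokine receptor, had -0.58 with FRAX-597 and -0.03 with IPA-3, each with an SE of 0.60 (limma adjusted p = 0.934 for FRAX-597). With the blocks the FRAX-597 change of CCR1 was called (adjusted p = 0.0429). It was at 9.18 and 7.68 in the FRAX-597 arrays, against 9.87 and 8.15 in DMSO 3 and 4, so that the gap between replicates was wide in both groups. The nearest named genes to CYSLTR1 were PGK1, a glycolytic enzyme (0.09 with FRAX-597 and -0.23 with IPA-3), and LPAR4, a lysophosphatidic acid receptor (-0.08 and -0.17). Those nearest to RXFP1 were C4orf46 at 13.3 kb (-0.03 and -0.10) and ETFDH, a mitochondrial flavoprotein dehydrogenase, at 18.9 kb (0.14 and -0.20).

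**Figure D4:**
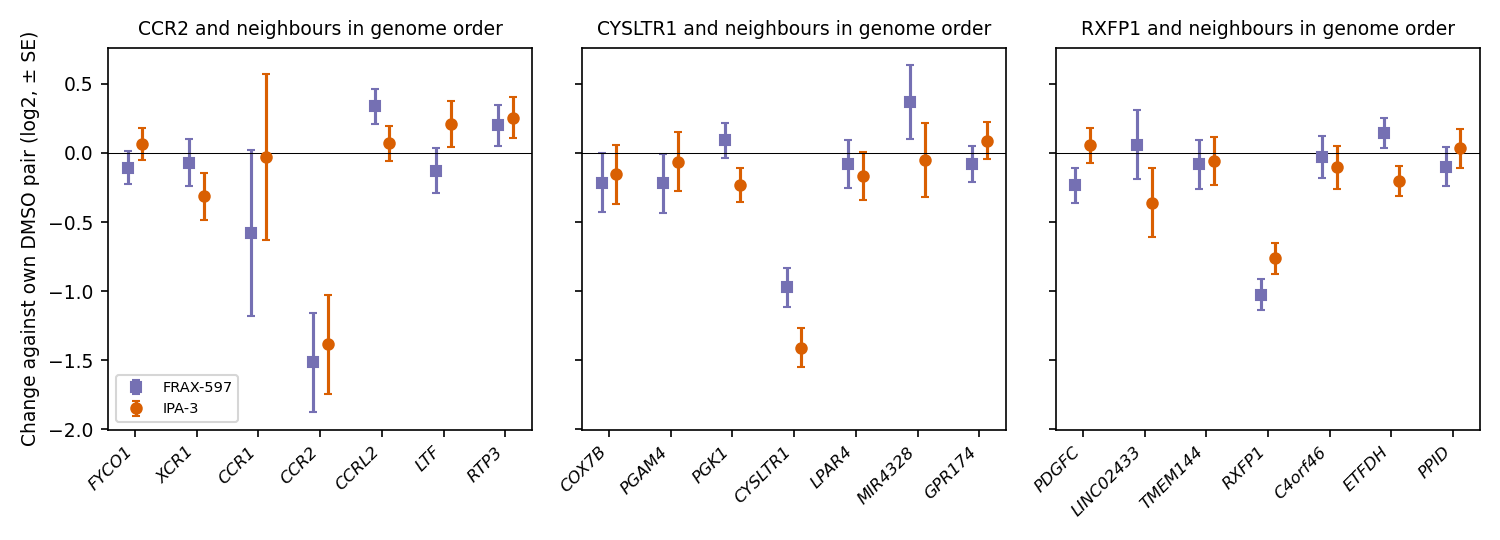
Change against the DMSO pair of the same array set (log2, vertical axis; bars are the SE of the fit) for each receptor and its 3 nearest measured genes on each side, in genome order and not to distance. Squares are FRAX-597 and circles IPA-3. The neighbours lie between -0.58 and 0.37, and the receptors, which were chosen as low, between -1.52 and -0.76.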

How the data were processed

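The deposited table holds log2 expression values of 53617 probes in 8 arrays, made by the authors with Affymetrix Expression Console and Transcriptome Analysis Console per the submitters' processing notes. How the values were summarised and normalized, and the array design's genome build, are not given in the sources used here. Platform annotation names 16098 probes with 1 gene, 0 with several, and 37519 probes carry no name. All 16098 identifiers matched the gene reference for GRCh38.p14. For 779 genes with several probes, the one with the highest mean was kept, leaving 14884 genes.

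Tests used lmFit and eBayes of limma 3.58.1 under R 4.3.3 on the deposited log2 values, with FRAX-597, DMSO 3 and 4, IPA-3, and DMSO 1 and 2 as 4 groups over 8 arrays, and Benjamini-Hochberg adjustment over all genes. SEs come from that fit, which shares 1 spread per gene. Members of lists were counted without a set test. The planned test of the receptors between the DMSO pairs is not given, since their levels entered the choice. The members, lists and tests were chosen with earlier results of these data known. Named genes were the members, called list genes, up to 4 per list and compound with the smallest p, 3 measured neighbours on each side, and the 5 genes most like each member. A step that needs protein sequences was not run. The fit was tested on simulated data. Alternatives were pooled controls, each set alone, quantile normalization, median centring, array pairs as blocks, a trended spread, every probe, a filter and leaving out each array.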

Additional observations from a re-analysis of the deposited data

How the results depend on the processing

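The number of arrays limits all values. With the 4 DMSO arrays pooled, limma called 5 genes for FRAX-597 and 0 for IPA-3 (843 at an unadjusted p under 0.05). CCR2, CYSLTR1 and RXFP1 were then at -2.04, -0.58 and -0.86 with FRAX-597, and at -0.86, -1.80 and -0.93 with IPA-3. By construction this mixes the array scales. Each set fitted alone gave 0 for FRAX-597 (606 at an unadjusted p under 0.05) and 96 for IPA-3. Every probe as its own feature gave 6 and 0 (3416 unadjusted for IPA-3). For IPA-3 quantile normalization gave 3, the filter on low genes 2 and a trended spread 8. The replicate block of array pairs, which the labels do not give, made it 202 for FRAX-597 and 72 for IPA-3. Its pairs come from the data: across genes, the DMSO 3 to DMSO 4 difference and the FRAX-597 1 to FRAX-597 2 difference had r = 0.65. The like value for the first set, which was left unpaired, was -0.06. Since the pairs were chosen by these values, the counts with the blocks may be too high. Leaving out each array gave 2 to 227 called genes for FRAX-597 (227 without FRAX-597 2), 0 to 24 for IPA-3 (0 without any single array of its set, with 491 to 1146 at an unadjusted p under 0.05), and 1641 to 5219 for the DMSO pairs, whose count was 8918 on uncentred values. The receptors stayed below 0 with pooled controls, quantile normalization, median centring and each array of their set left out. Under quantile normalization RXFP1 was at -0.67 with IPA-3. With single arrays left out, CCR2 ran from -2.15 to -0.89 with FRAX-597 and from -1.59 to -1.18 with IPA-3, CYSLTR1 from -1.16 to -0.78 and from -1.47 to -1.35, and RXFP1 from -1.06 to -0.98 and from -0.84 to -0.68. Between DMSO pairs, with single arrays left out, CCR2 ran from -2.14 to -0.93, CYSLTR1 from 0.24 to 0.38 and RXFP1 from -0.22 to -0.07. Uncentred, CYSLTR1 was at 0.79 and RXFP1 turned to 0.33, both including the shift of 0.48 over all genes. The cause of the other shifts was not tested.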

Other observations

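Among the arrays of the second set, 3 leukocyte genes named here after their values were seen differed between replicates in the same way with and without the compound. CCR1 was at 9.18 and 7.68 in FRAX-597 1 and 2, against 9.87 and 8.15 in DMSO 3 and 4. GPR18 was at 8.98 and 7.58 in FRAX-597 1 and 2, against 9.60 and 8.43 in DMSO 3 and 4. MNDA was at 9.74 and 8.05 in FRAX-597 1 and 2, against 10.41 and 9.01 in DMSO 3 and 4. CCR2 had such a gap in DMSO alone: it was at 7.30 and 7.13 in FRAX-597 1 and 2, against 9.36 and 8.10 in DMSO 3 and 4. The DMSO gap of CCR2, 1.26, was exceeded in size by 0.82% of all genes. FRAX-597 1 differed from DMSO 3 in CCR2 by -2.06, and FRAX-597 2 differed from DMSO 4 by -0.97. For RXFP1 the 2 such differences were -1.03 and -1.02, and for CYSLTR1 they were -1.12 and -0.82.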
